A study of Mus musculus with 6 samples.

Results

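Kinesins are motor proteins that bind microtubules and turn ATP hydrolysis into movement or into removal of tubulin from microtubule ends. The kinesin genes analysed here were all rows of the count table whose mouse symbol is *Kif*, a number and at most 1 letter from a to c, without antisense genes and pseudogenes. This name rule, which used no measured value, found 36 of 32493 genes. They were divided by textbook role into 11 mitotic kinesins, 15 kinesins of intracellular transport and 10 others, which act in cilia or at centrioles, serve both dividing cells and neurons, or have a role that is less certain. The 36 genes lie on 15 chromosomes, the 11 mitotic ones on 9. *Kif12* and *Kif2b* are annotated in GENCODE M21 but have no row in the table used here.

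The libraries came from neural stem cells (NSCs) of C57BL/6J mice, taken at E14.5 from tissue along the lateral ventricles and cultured for several generations in proliferation medium. The cko genotype combined floxed alleles of miR-151, a microRNA encoded within *Ptk2*, with Emx1-IRES-Cre, which expresses Cre recombinase in cells of the dorsal telencephalon. Ctrl embryos had the same floxed alleles but no Cre, and the sample labels call this genotype wt. RNA-seq compared the genotypes to find transcripts that differ when miR-151 is missing.

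Of 6 count columns, that of ctrl replicate 2 held the rounded-up average of the columns of ctrl replicates 1 and 3 in 32493 of 32493 genes, and was left out. The comparison was therefore made between 2 ctrl and 3 cko libraries, with total counts of 17883796 to 23335736, in which 3 counts correspond to 0.1286 to 0.1677 CPM, counts scaled to a common library total. The genotypes were littermates, and the general methods of the study call for several embryos per experiment, but which embryo, litter or culture each library came from is not stated, so the p-values measure only the spread between these libraries, which may be technical. The miR-151 gene itself has no row, and the deletion could not be checked from the counts. The NSC markers *Sox2* (556 to 626 CPM in the 5 libraries) and *Nes* (471 to 1068 CPM) were abundant. Other NSC markers ranged from *Pax6* (44.9 to 51.9 CPM) to *Vim* (1995 to 3547 CPM). Of the microglial markers, *Aif1*, *Cx3cr1* and *Csf1r* were at or below 0.107 CPM and *P2ry12* at or below 0.437 CPM in every library. Of the endothelial markers, *Cdh5* was at 0 in every library, *Pecam1* at 0.276 to 0.534 CPM and *Kdr* at 3.71 to 6.43 CPM. The myelin gene *Mbp* (9.30 to 238 CPM) and the astrocyte marker *Gfap* (86.7 to 1008 CPM), which cultured NSCs can also express, were detected in every library. Markers of the oligodendrocyte lineage were abundant too, with *Olig1* at 1097 to 1994 CPM, *Olig2* at 539 to 819, *Cspg4* at 193 to 389 and *Pdgfra* at 145 to 268. *Sox10* had 41.2 to 190 CPM and *Mog* 1.22 to 2.23 CPM.

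Kinesins share a motor domain and differ in the parts that bind cargo, other subunits or a second microtubule. Mitotic kinesins build the spindle, move and align chromosomes, and organise the central spindle and midbody on which the daughter cells separate. Their transcripts are known to accumulate in G2 and M phase and to be scarce in cells that have left the cycle. Transport kinesins carry vesicles, organelles, RNA and ciliary components toward microtubule plus ends, and neurons depend on them for supply of axons and dendrites. Neural progenitors need both kinds, because they divide at the ventricle and also carry a long radial fibre and a primary cilium.

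In NSCs of both genotypes, the most abundant kinesin transcripts were those of transport motors. Levels are given here as TMM-normalized CPM, and levels of different genes are compared as CPM per kb of annotated exon. Per kb, *Kif1a*, a carrier of synaptic vesicle precursors, had a mean of 83.4 in ctrl and 87.8 in cko NSCs. It was followed by *Kif1b* (74.9 and 62.9 CPM per kb), *Kif3a* (47.1 and 44.8) and *Kif5b* (40.9 and 38.7), and by group mean these 4 genes held ranks 1 to 4 among the 36 members in both genotypes. Their order was not the same in every library, since *Kif21b* (46.8 CPM per kb in ctrl library 3) was above *Kif5b* (45.4) and *Kif3a* (42.1) there. The most abundant mitotic member was *Kif11*, which stood at rank 10 in ctrl (15.5 CPM per kb) and rank 5 in cko NSCs (35.2 CPM per kb). The lowest levels per kb belonged to *Kif28* (0.102 in ctrl and 0.0620 in cko), *Kif26b* (0.120 and 0.0933) and *Kif6* (0.354 and 0.134). Read counts of the 36 genes made up 0.453% to 0.483% of a library. All 36 passed the filter on low counts that left 16710 genes for testing.

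**Figure D1:**
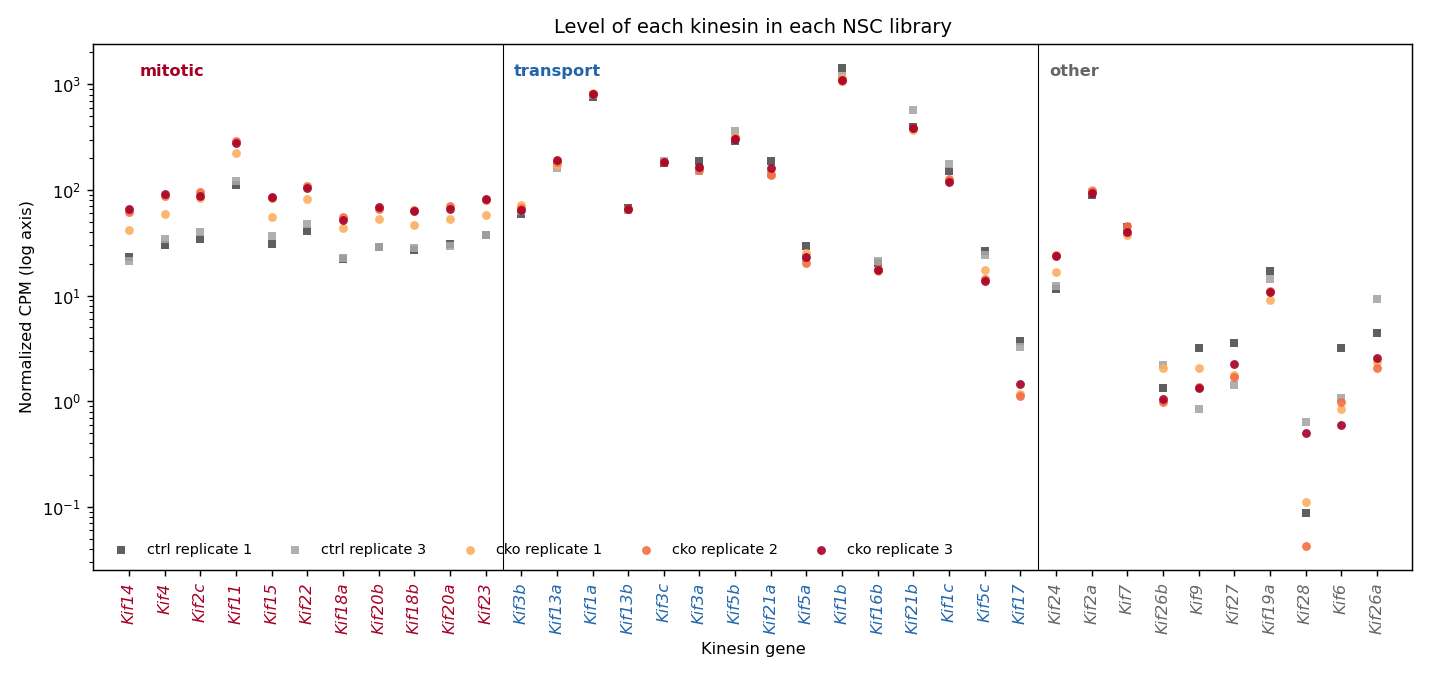
Normalized CPM (log axis, not divided by gene length) of the 36 kinesins in 2 ctrl libraries (grey squares) and 3 cko libraries (coloured circles), with the genes in 3 classes and ordered within each class by fold change. In all 11 mitotic kinesins the 3 cko points lie above both ctrl points, and cko replicate 1 is the lowest of the 3.

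Every mitotic kinesin was more abundant in cko NSCs. In edgeR's quasi-likelihood test with Benjamini-Hochberg adjustment over all 16710 genes, 11 of 11 were higher in cko at an adjusted p under 0.05, where 7.86% of all tested genes were higher. The same 11 of 11 passed the threshold of the study, a log2 fold change beyond 0.9 with an unadjusted p under 0.01, which 2.39% of tested genes passed in this direction. In 11 of 11 every cko library was above every ctrl library, as in 25.4% of tested genes. Their log2 fold changes lay in a narrow range, from 0.97 to 1.36 with a median of 1.16 (folds of 1.95 to 2.56), against a median of -0.00 over all tested genes. Adjusted p-values were between 0.00109 and 0.00928 (edgeR). The count depends on the class. With *Kif2a*, which also acts at spindle poles but was placed among the others, 11 of 12 would be higher, and the range would start at 0.09.

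The spindle motors were led by *Kif11* (ENSMUSG00000012443, GRCm38 chr19:37376403-37421859), the plus-end motor that slides antiparallel microtubules apart and thereby separates the spindle poles. It had 111 and 121 CPM in ctrl libraries 1 and 3, and 222, 289 and 276 CPM in cko libraries 1, 2 and 3. Its lowest cko value was thus well above its highest ctrl value, and its log2 fold change was 1.18 (SE 0.12, adjusted p 0.00221, edgeR). *Kif15*, a motor of spindle microtubules that can take over part of the work of *Kif11*, had 30.5 and 36.3 CPM in ctrl and 55.5, 84.2 and 84.9 CPM in cko libraries. Its log2 fold change was 1.17 (SE 0.20), and it was the only mitotic member that lost its call in any alternative, at an adjusted p of 0.0503 (edgeR) without cko library 2. *Kif2c*, which removes tubulin from microtubule ends and corrects faulty attachments at centromeres, had the smallest p-value of the family. Its levels were 34.6 and 40.4 CPM in ctrl and 84.2, 96.2 and 87.2 CPM in cko libraries, with a log2 fold change of 1.25 (SE 0.10, adjusted p 0.00109, edgeR).

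Motors of chromosome movement differed to a similar extent. *Kif18a*, which restrains the oscillation of chromosomes at the metaphase plate, was almost equal in the ctrl libraries at 22.4 and 22.7 CPM, and reached 43.9, 55.5 and 52.2 CPM in the cko libraries. Its relative *Kif18b*, which shortens astral microtubules, had 26.9 and 28.3 CPM in ctrl and 46.7, 65.2 and 62.9 CPM in cko libraries. The chromokinesin *Kif22*, which pushes chromosome arms away from the poles, had 41.1 and 47.3 CPM in ctrl and 82.8, 110 and 104 CPM in cko libraries. These 3 members had log2 fold changes of 1.16, 1.08 and 1.16, and none of them overlapped between the genotypes. The chromokinesin *Kif4*, which also sets the length of the central spindle, had 29.8 and 34.4 CPM in ctrl and 59.4, 87.2 and 90.6 CPM in cko libraries (log2 fold change 1.30, SE 0.19, adjusted p 0.00564, edgeR). *Kif4* is the X-linked member of the family and shares 832 bp of exon with *Pdzd11* on the opposite strand, so its count is uncertain. The sex-chromosome transcripts also differed between the genotypes. *Xist*, the RNA that coats the inactive X chromosome, had 2889 and 2557 CPM in ctrl and 787, 849 and 894 CPM in cko libraries, and the Y-linked *Kdm5d* had 25.1 and 27.0 CPM in ctrl and 67.6 to 69.1 CPM in cko libraries. Their part in the kinesin differences was not tested.

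The kinesins of cytokinesis were higher as well. *Kif14*, which acts at the midbody with citron kinase, had the largest difference of the class, from 23.0 and 21.2 CPM in ctrl to 41.5, 62.2 and 66.0 CPM in cko libraries (log2 fold change 1.36, SE 0.20, adjusted p 0.00589, edgeR). *Kif23*, the motor subunit of centralspindlin, had the smallest, from 37.5 and 37.6 CPM to 58.0, 80.5 and 81.3 CPM (0.97, SE 0.15, adjusted p 0.00777). The 95% intervals of these 2 members, 0.89 to 1.82 and 0.61 to 1.32, overlap. *Kif20b*, which supports the midbody and abscission, had 29.0 and 28.7 CPM in ctrl and 52.8, 65.9 and 68.5 CPM in cko libraries. *Kif20a*, which brings the chromosomal passenger complex to the central spindle, had a log2 fold change of 1.06, but shares 1271 bp of exon with *Cdc23* on the opposite strand, and its count is uncertain.

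The spread among the cko libraries had the same order in the whole class. Cko library 1 held the lowest cko value of 11 of the 11 mitotic kinesins, while the highest was in cko library 2 for 6 and in cko library 3 for 5. Relative to the ctrl mean, the median log2 ratio of the class was 0.89 in cko library 1, 1.31 in cko library 2 and 1.24 in cko library 3. The ctrl libraries differed by at most 1.19-fold in any mitotic kinesin. Without cko library 2, 10 of the 11 stayed past the threshold.

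**Figure D2:**
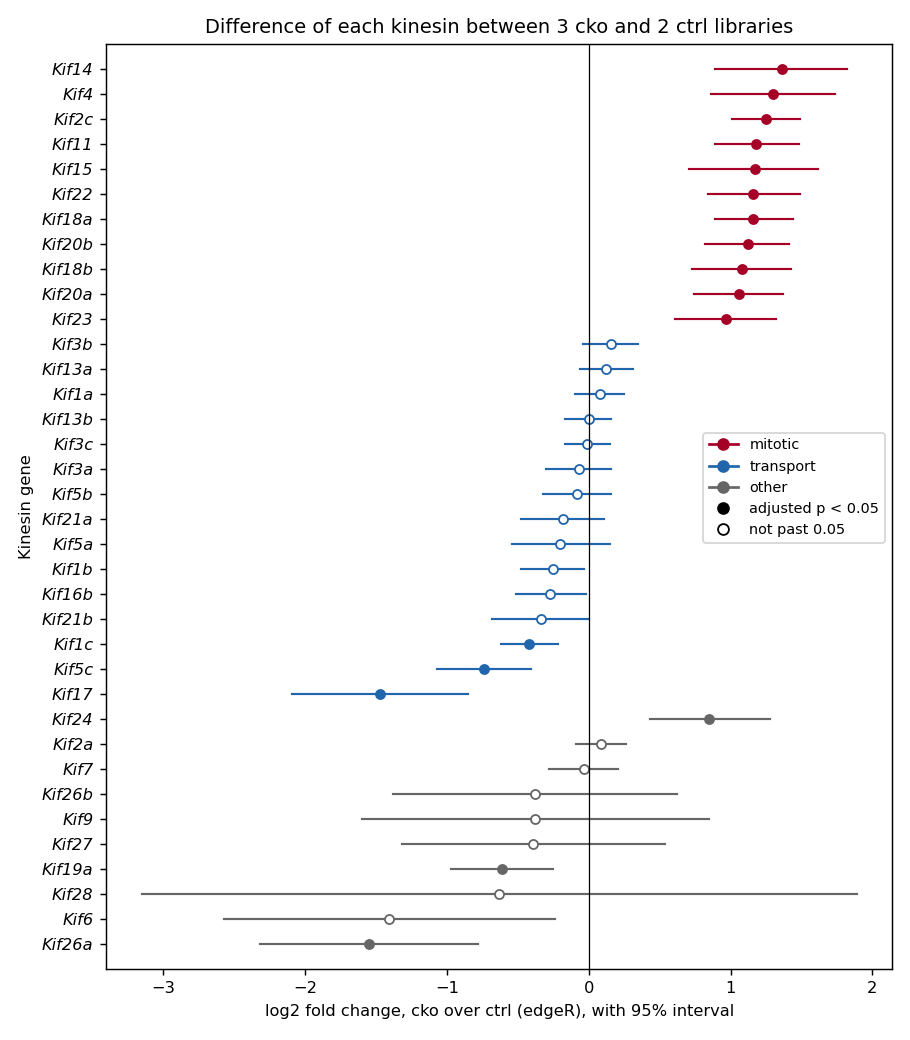
Log2 fold change of cko over ctrl NSCs for each of the 36 kinesins (edgeR, 3 cko and 2 ctrl libraries), with 95% intervals. Filled points passed an adjusted p of 0.05. The 11 mitotic kinesins lie between 0.97 and 1.36, the transport kinesins between -1.47 and 0.16, and the others between -1.55 and 0.85.

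Promoter sequences are shown for the mitotic members because the class moved together. Many promoters of genes expressed in G2 and M phase carry the cell cycle genes homology region (CHR), a short element near the transcription start that is bound by the DREAM and B-MYB complexes, often with CCAAT boxes upstream. The letters TTTGAA, known as the common form of the CHR, were searched on both strands in RefSeq promoter windows of GRCm38.p6, which run from 250 bases before to 50 bases after the annotated start. A window was found for 29 of the 36 members, and not for *Kif13b*, *Kif19a*, *Kif20a*, *Kif21b*, *Kif28*, *Kif5a* and *Kif5b*. The search was chosen after the fold changes were known and is a description. The letters were present in 9 of 10 mitotic kinesins (all but *Kif18a*), in 1 of 11 transport kinesins (*Kif1a*) and in 2 of 8 others (*Kif26b* and *Kif27*), and in 20.2% of all 27025 genes with a window. Within 30 bases of the start, a limit set after the positions were seen, they were found in 7 of 10 mitotic and 0 of 11 transport kinesins, in 1 of 8 others and in 3.72% of all genes. The sites nearest to the start are given below from 5′ to 3′ on the strand of the gene, with TTTGAA or its complement TTCAAA in capitals.
Kif11, chr19:37376351-37376380, plus strand: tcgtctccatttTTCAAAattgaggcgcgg
Kif15, chr9:122951050-122951079, plus strand: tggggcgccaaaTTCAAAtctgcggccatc
Kif22, chr7:127042420-127042449, minus strand: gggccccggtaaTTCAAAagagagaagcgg
Kif23, chr9:61946780-61946809, minus strand: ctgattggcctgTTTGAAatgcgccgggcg
Kif18b, chr11:102925104-102925133, minus strand: cggaccggctagTTTGAAcgcgccgcgccg
Kif20b, chr19:34922353-34922382, plus strand: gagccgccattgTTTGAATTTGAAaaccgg
Kif4, chrX:100626072-100626101, plus strand: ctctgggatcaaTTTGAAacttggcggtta
Kif2c, chr4:117178858-117178887, minus strand: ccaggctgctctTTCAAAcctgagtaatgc
Kif14, chr1:136467608-136467637, plus strand: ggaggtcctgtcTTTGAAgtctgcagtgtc

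The first capital letter lies 19 bases before the RefSeq start in *Kif11* and *Kif15* and 17 bases before it in *Kif22*. It lies 2 bases after the first transcribed base in *Kif23*, 3 in *Kif18b*, 7 in *Kif20b* and 19 in *Kif4*. In *Kif20b* the letters occur as a tandem pair. *Kif2c* and *Kif14* hold them only at positions -103 and -228, and in these 2 genes the RefSeq start lies 3867 and 1505 bp downstream of the 5′ end of the GENCODE gene, so that the windows may not cover the start used in these cells. In *Kif4* the RefSeq start lies 328 bp downstream of the GENCODE 5′ end, which its window does not reach either. The same holds outside the mitotic class for *Kif17* (11816 bp), *Kif27* (4175 bp) and the *Kif1a* window that holds the letters (19471 bp). The counts for the other classes therefore carry this limit too. CCAAT, searched on both strands, was present in 6 of 10 mitotic, 3 of 11 transport and 4 of 8 other kinesins, against 41.1% of all genes. In *Kif11*, *Kif22*, *Kif18b*, *Kif23* and *Kif4* it occurs upstream of the TTTGAA nearest to the start, and in *Kif14* downstream. Those of *Kif11* and *Kif22*, between 45 and 54 bases before the start, are shown here as examples with CCAAT or its complement ATTGG in capitals.
Kif11, chr19:37376325-37376353, plus strand: tgccgctctgctATTGGtccggtcagtcg
Kif22, chr7:127042458-127042486, minus strand: cacgtagctgcgATTGGtcgaatctgaga

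The variant TTCGAA, present in 1.8% of all genes, was found in *Kif24* alone among the members, 26 bases before the start. *Kif24* was also the 1 member outside the mitotic class that was higher in cko NSCs.
Kif24, chr4:41464857-41464886, minus strand: tcggcgcgcgcgTTCGAActggcgcttgtg

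The letters alone do not separate the members by fold change. *Kif18a*, without TTTGAA in its window, had a log2 fold change of 1.16, whereas *Kif26b*, with the letters 9 bases before its start, had 1.35 and 2.19 CPM in ctrl and 2.07, 0.986 and 1.06 CPM in cko libraries and was not called (it shares 909 bp of exon with a gene on the opposite strand). Matches are sequence descriptions, and no binding was measured.

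**Figure D3:**
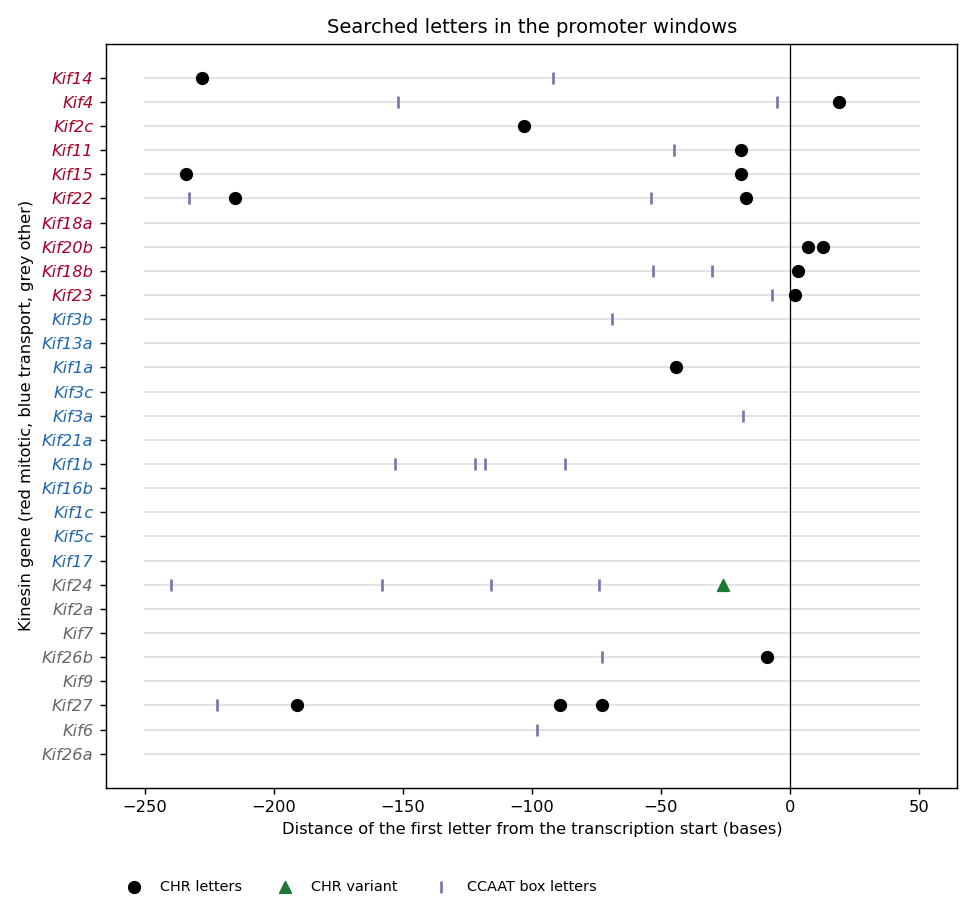
Position of the searched letters in the promoter windows of 29 kinesins, as the distance in bases from the RefSeq start to the first letter (circles TTTGAA, triangle TTCGAA, bars CCAAT, either strand). Circles within 30 bases of the start are found in 7 mitotic members (red names), no transport member (blue) and 1 other member (grey).

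The ratio of the mitotic kinesins to *Mki67* and *Top2a* differed much less between the genotypes than the kinesins themselves. *Mki67*, which coats mitotic chromosomes and is absent from resting cells, had 254 and 269 CPM in ctrl and 539, 705 and 683 CPM in cko libraries (log2 fold change 1.30, adjusted p 0.00192, edgeR). *Top2a*, which untangles sister chromatids, had a log2 fold change of 1.21. Cko library 1 was thus the lowest cko library for *Mki67* too. The summed CPM of the 11 mitotic kinesins was 1.64 and 1.66 times that of *Mki67* in the ctrl libraries and 1.49, 1.51 and 1.52 times in the cko libraries. This ratio was thus lower in every cko library than in either ctrl library. Against *Top2a* the ratio was 1.65 and 1.58 in ctrl and 1.55, 1.56 and 1.59 in cko libraries. The replication genes *Pcna* (log2 fold change 0.90, adjusted p 0.00636) and *Mcm2* (0.83, adjusted p 0.0511, not called) had smaller differences. In bulk RNA, more cells in G2 and M phase and more transcript per cell cannot be told apart.

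**Figure D4:**
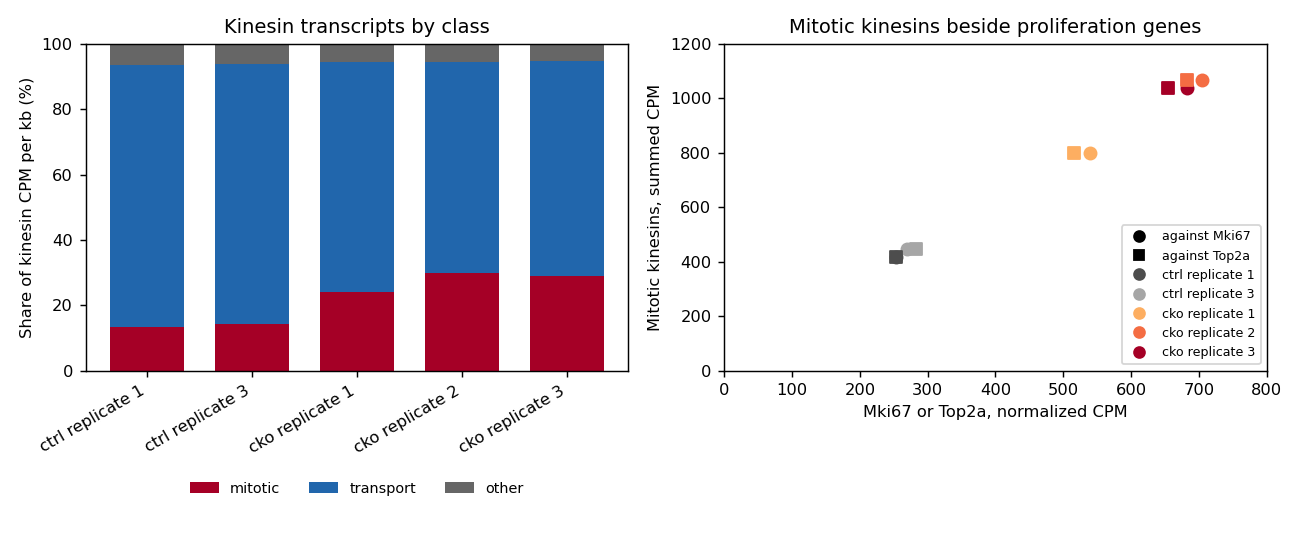
Left, share of the summed kinesin CPM per kb from each class in each library. Right, summed CPM of the 11 mitotic kinesins against the CPM of *Mki67* (circles) and *Top2a* (squares) in the same 5 libraries. The mitotic share is 13.3% and 14.3% in ctrl and 24.1% to 29.9% in cko libraries, and the kinesin sum rises with both proliferation genes across libraries.

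The makeup of the kinesin transcript pool differed between the genotypes. On the scale of CPM per kb, mitotic members made up 13.3% and 14.3% of the pool in ctrl libraries and 24.1%, 29.9% and 29.0% in cko libraries. Transport members made up 80.4% and 79.6% in ctrl and 70.4%, 64.5% and 65.7% in cko libraries. The pool itself was 506 and 509 CPM per kb in ctrl and 540, 576 and 577 CPM per kb in cko libraries. With 2 against 3 libraries a permutation test of these shares cannot reach a p under 0.05, and none was run.

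Most transport kinesins were not called in either direction. None of the 15 was higher at an adjusted p under 0.05 (edgeR), 3 were lower, where 8.57% of all tested genes were lower, and 12 were not called. Their median log2 fold change was -0.18. At the threshold of the study, *Kif17* alone was lower, where 4.17% of tested genes passed in this direction. Every cko library was below every ctrl library in 6 of the 15, as in 24.3% of tested genes, and above in 3.

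*Kif17* (ENSMUSG00000028758, chr4:138250435-138301967), the homodimeric kinesin-2 that carries receptors into dendrites and also enters cilia, had the largest difference among the transport members. It was scarce, at 3.71 and 3.25 CPM in ctrl and 1.18, 1.11 and 1.47 CPM in cko libraries, and its log2 fold change was -1.47 (SE 0.26, adjusted p 0.0118, edgeR). It shares 74 bp of exon with *Sh2d5* on the same strand. *Kif5c*, a neuron-enriched heavy chain of conventional kinesin, had 26.6 and 24.2 CPM in ctrl and 13.6 to 17.6 CPM in cko libraries (log2 fold change -0.74, SE 0.14, adjusted p 0.0141). *Kif1c*, a widely expressed vesicle carrier, had 152 and 176 CPM in ctrl and 121, 126 and 120 CPM in cko libraries (-0.42, SE 0.08, adjusted p 0.0175). These 3 calls could be lost when a single cko library was left out, although the log2 fold changes moved little. They were then -1.61 to -1.40 for *Kif17*, -0.86 to -0.68 for *Kif5c* and -0.45 to -0.42 for *Kif1c*. Without cko library 2, the adjusted p of *Kif17*, *Kif5c* and *Kif1c* was 0.0658, 0.0762 and 0.0749 (edgeR), so that 0 of the 15 were lower, and without cko library 3, *Kif17* was the 1 that remained.

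The other transport members were not called. The 95% intervals of *Kif5a*, *Kif16b*, *Kif1b*, *Kif21a* and *Kif21b* include a difference as large as that of *Kif1c* (log2 fold change -0.42), and those of the rest do not. The heterotrimeric kinesin-2 genes *Kif3a*, *Kif3b* and *Kif3c*, whose products drive intraflagellar transport in cilia and vesicle transport in axons, had log2 fold changes of -0.07, 0.16 and -0.01, with 95% intervals from -0.30 to 0.16, -0.04 to 0.35 and -0.17 to 0.15. *Kif3c* shares 3205 bp of exon with genes on the opposite strand and is uncertain. *Kif1a* had 763 and 793 CPM in ctrl and 834, 808 and 816 CPM in cko libraries (0.08, interval -0.10 to 0.25). The endosomal carriers *Kif13a* and *Kif13b* had differences of 0.12 (-0.06 to 0.31) and -0.00 (-0.17 to 0.16), and *Kif13b* stood at 64.5 to 66.9 CPM in all 5 libraries. The ubiquitous heavy chain *Kif5b* differed more between the ctrl libraries, at 291 and 362 CPM, than among the cko libraries, at 303 to 315 CPM, and *Kif5a*, the neuronal heavy chain, had a log2 fold change of -0.20 (-0.54 to 0.15).

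Some transport members that were not called had groups that did not overlap. Every cko library was above every ctrl library in *Kif1a*, *Kif13a* and *Kif3b*, and below in *Kif1b*, *Kif16b* and *Kif21b*. Of all tested genes, 25.4% lay above and 24.3% below in this way. *Kif1b*, which carries mitochondria and vesicle precursors, had 1429 and 1209 CPM in ctrl and 1155, 1069 and 1098 CPM in cko libraries (log2 fold change -0.25, adjusted p 0.116, edgeR). *Kif16b*, which moves early endosomes, had 20.9 ± 0.575 CPM (SD, n = 2) in ctrl and 17.4 ± 0.341 CPM (SD, n = 3) in cko libraries (-0.27, adjusted p 0.127). *Kif21b*, a motor that restrains microtubule growth in neurons, had 393 and 570 CPM in ctrl and 371, 388 and 384 CPM in cko libraries (-0.34, adjusted p 0.154). Its log2 fold change was -0.59 without ctrl library 1 and -0.04 without ctrl library 3. The related *Kif21a* had 189 and 143 CPM in ctrl and 139 to 160 CPM in cko libraries (-0.18, adjusted p 0.358).

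Of the 10 other kinesins, 1 was higher, 2 were lower and 7 were not called, against 7.86% of tested genes higher and 8.57% lower, and their median log2 fold change was -0.38. *Kif24* (ENSMUSG00000028438), a centriolar kinesin that holds back the formation of primary cilia in cycling cells, had 11.5 and 12.4 CPM in ctrl and 16.8, 24.1 and 23.7 CPM in cko libraries (log2 fold change 0.85, SE 0.18, adjusted p 0.0211, edgeR). As in the mitotic class, cko library 1 was the lowest of the cko libraries, and the call was lost without cko library 2 (adjusted p 0.0967) and without cko library 3 (0.0977). *Kif26a*, an atypical kinesin without ATPase activity that acts in neuronal signalling, had 4.46 and 9.28 CPM in ctrl and 2.35, 2.06 and 2.57 CPM in cko libraries (-1.55, SE 0.33, adjusted p 0.0208). Its ctrl libraries differed by 2.08-fold from each other, and its log2 fold change was -2.01 without ctrl library 1 and -0.93 without ctrl library 3. *Kif19a*, which limits the length of motile cilia by removing tubulin at their tips, had 15.7 ± 1.82 CPM (SD, n = 2) in ctrl and 9.01, 11.1 and 10.8 CPM in cko libraries (-0.61, SE 0.15, adjusted p 0.0362). *Kif26a* lost its call without any 1 of the cko libraries (adjusted p 0.0688 to 0.0947), and *Kif19a* without any 1 library other than ctrl library 3 (adjusted p 0.0733 to 0.112).

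*Kif2a*, which acts at spindle poles and in the pruning of axon branches, had 88.7 and 95.1 CPM in ctrl and 99.4, 98.6 and 94.5 CPM in cko libraries (log2 fold change 0.09, interval -0.09 to 0.26). It shares 1229 bp of exon with *Dimt1* on the opposite strand and is uncertain. *Kif7*, which organises the tip of the primary cilium for Hedgehog signalling, had 44.2 and 40.2 CPM in ctrl and 37.8, 45.4 and 40.3 CPM in cko libraries (-0.03, interval -0.28 to 0.21). It shares 928 bp of exon with genes on the opposite strand and is uncertain. The 5 members that differed more than 2-fold between the ctrl libraries, *Kif6*, *Kif9*, *Kif26a*, *Kif27* and *Kif28*, were all in this class, and 9.35% of all tested genes differed that much. *Kif6* and *Kif9*, both known from motile cilia, had 3.19 and 1.07 CPM and 3.19 and 0.854 CPM in ctrl libraries 1 and 3. In the cko libraries *Kif6* had 0.597 to 0.986 CPM and *Kif9* 1.33 to 2.07 CPM, and the adjusted p was 0.0978 and 0.661 (edgeR). *Kif27*, a relative of *Kif7*, had 3.54 and 1.44 CPM in ctrl and 1.71 to 2.25 CPM in cko libraries, so *Kif6*, *Kif9* and *Kif27* were all highest in ctrl library 1. Of the 5 markers of multiciliated cells, *Foxj1* had 25.2 CPM in ctrl library 1 and 16.4 to 20.8 CPM in the other 4 libraries, and *Ccdc153*, *Tmem212*, *Rsph1* and *Dnah11* were at or below 0.699 CPM in every library. *Kif28* was below the floor of 3 counts in ctrl library 1 and cko libraries 1 and 2, at 0.0874, 0.112 and 0.0429 CPM. It had 0.640 CPM in ctrl library 3 and 0.506 CPM in cko library 3, no difference was detectable for it at this depth, and its 95% interval ran from -3.15 to 1.89. It also shares 155 bp of exon with *Ahctf1* on the same strand.

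Kinesin families are defined by the sequence of the motor domain, and several families were split between called and uncalled members. In the kinesin-13 family of depolymerases, *Kif2c* and *Kif24* were higher and *Kif2a* was not called. The log2 ratio of *Kif2c* to *Kif2a* on the scale of CPM per kb was -0.80 and -0.68 in ctrl libraries and 0.31, 0.52 and 0.44 in cko libraries. On this scale *Kif2a* was the more abundant of the pair in ctrl and *Kif2c* in cko NSCs. In CPM not divided by length, *Kif2a* was above *Kif2c* in every library of both genotypes. In the kinesin-8 family, the mitotic *Kif18a* and *Kif18b* were higher and the ciliary *Kif19a* was lower. The log2 ratio of *Kif18a* to *Kif19a* per kb went from -0.88 and -0.62 in ctrl to 1.01, 1.05 and 0.99 in cko libraries. In the kinesin-4 family *Kif4* was higher while *Kif7*, *Kif21a*, *Kif21b* and *Kif27* were not called. In the kinesin-3 family *Kif14* was higher, *Kif1c* was lower and the other 6 were not called. All 3 kinesin-6 genes, *Kif20a*, *Kif20b* and *Kif23*, were higher.

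Kinesins that the name rule does not cover were examined beside the members. *Cenpe*, the kinetochore motor that carries chromosomes to the metaphase plate, had 63.8 and 63.4 CPM in ctrl and 128, 166 and 168 CPM in cko libraries (log2 fold change 1.28, adjusted p 0.0020, edgeR). The minus-end spindle motor *Kifc1* had 36.1 and 53.7 CPM in ctrl and 65.6, 89.2 and 88.1 CPM in cko libraries (0.86, adjusted p 0.0274). Reads of *Kifc1* may be shared with its close copy *Kifc5b* (0.61, adjusted p 0.0776), so both are uncertain. The transport-related *Kifc2* (-0.57, adjusted p 0.0590) and *Kifc3* (-0.67, adjusted p 0.0729) were not called.

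Of 12 listed partners of mitotic kinesins, 12 were higher in cko NSCs, against 7.86% of tested genes. These partners had a median log2 fold change of 1.11. They include *Tpx2* (1.25), which recruits spindle motors, *Racgap1* (1.19), which pairs with *Kif23* in centralspindlin, *Nusap1* (1.23), which bundles spindle microtubules, and *Ect2* (1.15), which starts furrow formation. The smallest difference was that of *Mapre1* (0.32), a plus-end protein used throughout the cell cycle. Of 10 light chains, adaptors and partners of transport kinesins, only *Mapk8ip3*, the JIP3 scaffold of axonal transport, was called. *Mapk8ip3* was lower, as were 8.57% of all tested genes. It had 436 and 482 CPM in ctrl and 359, 352 and 355 CPM in cko libraries (-0.37, adjusted p 0.0189, edgeR). The light chain *Klc1*, by contrast, had 331 and 332 CPM in ctrl and 323 to 343 CPM in cko libraries.

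Of 18 genes of cytoplasmic dynein and dynactin, 1 was higher, the dynactin filament subunit *Actr1a* (log2 fold change 0.27, adjusted p 0.0455, edgeR). The other 17 were not called, and the median was 0.06. Of all tested genes, 7.86% were higher and 8.57% lower. In 9 of the 18 every cko library was above every ctrl library, and in 3 below, against 25.4% and 24.3% of tested genes. The largest difference was that of the scarce intermediate chain *Dync1i1*, at 0.0437 and 0.534 CPM in ctrl and 0.954 ± 0.0555 CPM (SD, n = 3) in cko libraries (1.79, interval 0.08 to 3.49, adjusted p 0.138). The heavy chain *Dync1h1* had 1001 and 952 CPM in ctrl and 972 to 1034 CPM in cko libraries. Among 14 genes of intraflagellar transport and its dynein, the cargo machinery of *Kif3a* and *Kif3b*, 3 were higher, *Ift27* (0.64), *Ift46* (0.41) and *Ift80* (0.54), none was lower, and the median was 0.06.

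Some markers of stem cells and of other cell types differed between the genotypes, where 7.86% of all tested genes were higher and 8.57% lower. Of 8 NSC markers, *Nes* and *Hes5* were higher, *Slc1a3* was lower (log2 fold change -0.79) and 5 were not called. *Nes*, an intermediate filament of neural progenitors, had 471 and 537 CPM in ctrl and 874, 1068 and 1034 CPM in cko libraries (0.98, adjusted p 0.00287, edgeR), and *Hes5*, a Notch target, had a log2 fold change of 0.93. The NSC markers did not share 1 order among the cko libraries. Cko library 1 had the lowest cko value of *Nes* and *Pax6*, but the highest of *Vim*, *Fabp7*, *Sox9* and *Slc1a3*. *Sox2* and *Hes5* were lowest in cko library 3. Of 7 neuronal markers tested, *Syt1* (1.57) and *Elavl4* (1.30) were higher, *Dcx* was lower (-1.51) and 4 were not called. The summed CPM of these 7 markers, 1261 and 1130 in ctrl and 1273 to 1305 in cko libraries, was made up mostly of *Map2* (959 to 1124 CPM), while *Dcx* had 148 and 100 CPM in ctrl and 37.4 to 54.8 CPM in cko libraries. Of 6 astrocyte markers, 3 were lower and none was higher, and their sum was 2406 and 1355 CPM in ctrl libraries 1 and 3 and 1125, 568 and 605 CPM in cko libraries 1, 2 and 3. Cko library 1 had the highest astrocyte sum and the lowest mitotic kinesins of the cko libraries. The ctrl libraries also differed in their astrocyte sum, while their mitotic kinesins had median log2 ratios of -0.04 and 0.04 to the ctrl mean. Among the oligodendrocyte markers, the lineage factors *Olig1* (0.63) and *Olig2* (0.38) were higher, *Sox10* (-1.90) and *Mbp* (-4.16) were lower, and *Pdgfra*, *Cspg4* and *Mog* were not called. *Mbp*, a component of myelin, had 139 and 238 CPM in ctrl and 10.5, 9.30 and 11.8 CPM in cko libraries, with no overlap. The part of these cell types in the kinesin differences was not tested.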

How the data were processed

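The authors filtered the reads of NSC RNA-seq libraries, aligned them with HISAT2 and deposited raw counts per Ensembl gene, without normalization. The paper names mm10 as the genome and the labels' processing notes name GRCm39, and the table gives no coordinates. The counting tool, annotation and use of strand are not given in the sources used here, so genes that share exons with a neighbour on either strand are uncertain. Besides the members flagged above, *Kif27* (332 bp), *Kif5b* (324 bp), *Kif22* (96 bp), *Kif6* (62 bp) and *Kif18a* (11 bp) share exon with genes on the opposite strand. On the same strand, *Kif1c* (7 bp) and *Kif27* (2 bp) share exon with microRNA genes. The column of ctrl replicate 2, which the authors deposited beside the counts, is another kind of value, the rounded mean of ctrl replicates 1 and 3. It was used only in alternatives. Symbols, positions and exon lengths were read from GENCODE M21 (GRCm38), where 31836 of 32493 IDs were found, and promoter windows from RefSeq on GRCm38.p6.

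Differences were tested with edgeR 4.0.16 in R 4.3.3 (filterByExpr, TMM, quasi-likelihood test, Benjamini-Hochberg adjustment over 16710 genes). Genes were called at an adjusted p under 0.05, and the threshold of the study, a log2 fold change beyond 0.9 with p under 0.01, was a second rule. Every member is accounted for. Of each other list, at most 4 genes with the smallest adjusted p were to be named. All 5 kinesins outside the name rule, *Mapre1*, *Klc1*, *Dync1h1*, *Dync1i1*, *Xist*, *Kdm5d* and the marker genes given with values were named outside this limit, after their values were seen. A result for 1 marker gene is not reported here. The members and lists were chosen with earlier results of these data known. A replicate block, all 6 columns, other filters, leaving out each library, median-of-ratios size factors and DESeq2 1.42.0 were tried as alternatives. Counting *Kif2a* as mitotic was another. Intervals cover the spread between libraries, and the floor of 3 counts covers counting error only. The fitting steps were tested on simulated data, where recovery of changed genes missed a preset limit that was then replaced by others, and where the share of false calls at an adjusted p under 0.05 was above its nominal level in both edgeR and DESeq2, so calls near the threshold are less certain than their adjusted p states. Figures were drawn with matplotlib 3.10.9.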

Additional observations from a re-analysis of the deposited data

How the results depend on the processing

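The 11 mitotic kinesins were called higher in every alternative except that *Kif15* was lost without cko replicate 2, and DESeq2 and median-of-ratios size factors moved no member across the threshold. With *Kif2a* (log2 fold change 0.09, adjusted p 0.466, edgeR) counted as mitotic, 11 of 12 were higher and the median stayed at 1.16. The lower calls were less stable. Of all kinesins, 5 were lower, which became 8 with all 6 columns, 8 with no filter on low counts, 2 at the threshold of the study, and 0 to 8 when single libraries were left out. Of the transport kinesins, 3 were lower, which became 5 with all 6 columns, 5 with no filter, 1 at the threshold of the study and 0 to 5 when single libraries were left out. The median of the transport kinesins was -0.18, and lay between -0.22 without cko replicate 3 and -0.04 without ctrl replicate 1. The mean mitotic share of kinesin transcripts in cko NSCs was 27.7% per kb and 20.4% with counts not divided by length. The log2 fold changes of 9 uncalled members changed sign when a single library was left out, with ranges of -0.88 to 0.40 for *Kif27*, -1.51 to 1.29 for *Kif28*, -0.12 to 0.03 for *Kif7* (0.02 without cko replicate 1), -1.01 to 0.87 for *Kif9*, -0.03 to 0.01 for *Kif13b*, -0.36 to 0.02 for *Kif21a*, -0.21 to 0.08 for *Kif3a*, -0.04 to 0.02 for *Kif3c* and -0.24 to 0.09 for *Kif5b*. Their signs changed without 1 of the ctrl libraries, and that of *Kif7* also without cko replicate 1. The cause was not tested. With the replicate block, *Kif19a* (-0.66, adjusted p 0.0657, edgeR) was the only member that lost its call. Libraries with the same number deviated together only weakly (r = 0.143 and 0.0507 across genes, which are not independent), there are only 2 such pairs, and cko replicate 2 has no partner among them. The ctrl level rests on 2 libraries, which limits the precision of every difference, and few reads add to this for *Kif6*, *Kif9* and *Kif28*.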
